A study of Bos taurus with 20 samples.

Results

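Genes of prostaglandin synthesis, reception and breakdown were followed across clonal MSC populations from bovine adipose tissue. The genes were taken by their symbols from the table of raw counts. They were PLA2G4A, PTGS1, PTGS2, PTGES, PTGIS, PTGDS, PTGER2, PTGER4, PTGFR and HPGD, 10 of the 33063 named genes of the table, and all 10 had counts. The table held 20 libraries, 1 per clone, from 10 adipogenic (A) and 10 non-adipogenic (N) clones. Each clone was a population grown from a single cell, sorted from an already passaged MSC culture of visceral fat of a crossbred calf. After sorting, the cells were kept in medium with serum and bFGF, to which conditioned medium from MSC cultures of the same animal was added. Of the 4 animals, 17 and 20 were represented by a single clone of each kind, and 22 and 23 by 4 of each kind. A clones were chosen for forming adipocytes in later differentiation tests, whereas N clones had failed to do so, and the RNA came from aliquots that had not been differentiated. The differentiation cocktail held indomethacin, an inhibitor of cyclooxygenases, which these aliquots had therefore not received.

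Prostaglandins are lipid messengers made from arachidonic acid that cytosolic phospholipase A2 releases from membranes. A cyclooxygenase, constitutive or inducible, turns the acid into an unstable intermediate, and terminal synthases convert this into prostaglandin E2, prostacyclin or prostaglandin D2. These act on receptors at the cell surface and are inactivated by an oxidising enzyme inside the cell. In adipose tissue, prostacyclin and J-series products of prostaglandin D2 are known as promoters of adipocyte differentiation, and prostaglandin F2α, through its receptor, as an inhibitor.

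Library totals lay between 14615493 and 29185355 counts for A clones and between 14908802 and 43111345 for N clones. Levels are given as CPM, the counts of a gene relative to its library total, scaled by TMM factors, which correct for differences in library composition. A total of 12900 genes passed the filter on low counts and were tested, among them 8 of the 10 prostaglandin genes. PTGS1 and PTGER2 did not pass. MSC markers were present in every clone, with a summed level of 8 markers of 23202 to 33212 CPM in A clones and 12279 to 30804 CPM in N clones. PTPRC, which marks leukocytes, was at 0 counts in 9 A and 9 N clones, and ITGAM, a macrophage gene, in 10 A and 9 N clones. Other macrophage genes were detected at low levels. CSF1R was at 0.476 to 2.38 CPM in A clones and 0 to 0.255 CPM in N clones. Means of CD68 were 3.62 CPM in A and 1.72 CPM in N clones, and those of MRC1 3.65 and 0.905 CPM. N clones 22-5 and 22-9 stood apart in mesothelial markers, with summed levels of 9198 and 6512 CPM against at most 1095 CPM in any other clone. P-values measure the spread between clones, of which those of 1 animal share that animal.

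For every prostaglandin gene tested except PTGS2, the log2 fold change between A and N clones was smaller in size than the SD among clones. That SD was taken on log2 CPM after animal and condition were fitted. For PTGS2 the log2 fold change was larger, at 2.00 against an SD of 1.503. PTGS2, the inducible cyclooxygenase, was the 1 gene of the 8 tested with an adjusted p under 0.05, where 20.6% of all genes tested had one, and it was higher in A clones. It also exceeded the 2-fold change that the study required in addition. Over all genes tested 5.76% met both thresholds, 3.95% with the higher level in A clones and 1.81% with the higher level in N clones. The clones of the groups overlapped for all 10 genes, as for all but 0.318% of the genes tested. Over the 8 genes the median log2 fold change was 0.30, against -0.01 over all genes tested.

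**Figure D1:**
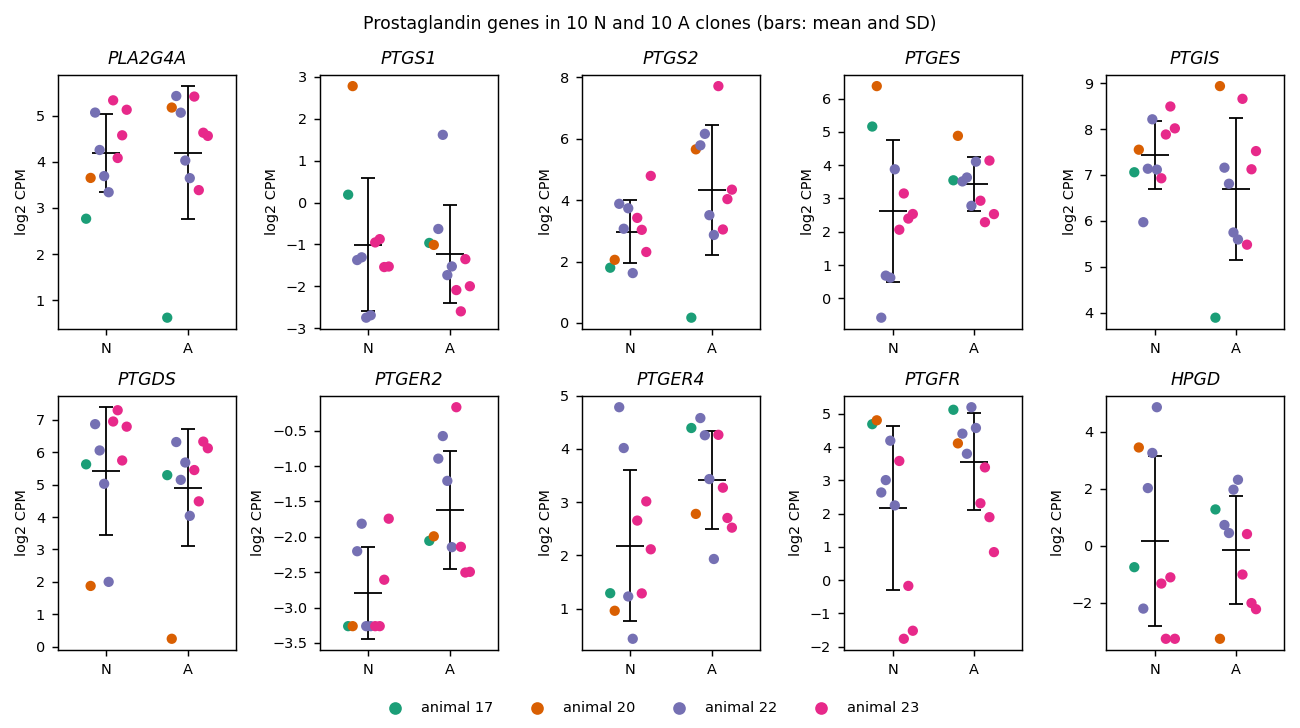
Level of each prostaglandin gene in the 20 clones, on the log2 CPM scale (prior count of 2), with 1 circle per clone coloured by animal, and horizontal marks and bars for mean and SD of 10 clones per group. The A and N clones overlap for every gene, and for PTGS2 the highest 4 clones are A clones while the lowest is also an A clone.

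PLA2G4A encodes the cytosolic phospholipase A2 that frees arachidonic acid, the first step of the pathway. It ranged from 1.43 to 43.0 CPM in A clones, with a median of 24.1 CPM, and from 6.70 to 40.3 CPM in N clones, with a median of 17.9 CPM. A clone 17-57 was below every N clone, and 2 A clones were above every N clone. Its log2 fold change of 0.09 with an SE (standard error) of 0.364 did not exceed that error, with an adjusted p of 0.877. All adjusted p-values of single genes come from the quasi-likelihood F test of edgeR with Benjamini-Hochberg adjustment over all genes tested. The difference was -2.15 in animal 17 and 1.53 in animal 20 on the log2 scale, each from 1 clone of each kind. In animals 22 and 23 it was 0.45 and -0.28.

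PTGS2, the cyclooxygenase that cells switch on upon stimulation, ranged from 1.02 to 210.0 CPM in A clones, with a median of 18.2 CPM. In N clones it ranged from 2.98 to 27.6 CPM, with a median of 8.18 CPM. A clones 20-106, 22-11, 22-16 and 23-14 held 50.3, 55.1, 71.4 and 210.0 CPM and were above every N clone. The other 6 A clones, at 1.02 to 20.2 CPM, lay below the highest N clone, and A clone 17-57 lay below all of them. Over the 10 clones of each kind the mean ± SD was 45.1 ± 62.7 CPM for A and 9.76 ± 7.46 CPM for N. The edgeR fit put the log2 fold change at 2.00, a 3.99-fold higher level in A clones (SE 0.687, adjusted p = 0.0484). Within animals PTGS2 was higher on the A side in 3 of 4, by 3.60, 1.504 and 1.39 on the log2 scale in animals 20, 22 and 23. In animal 17 the difference was -1.63.

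The call of PTGS2 lay close to the threshold. Leaving out 1 clone at a time moved its adjusted p above 0.05 in 12 of 20 fits, with the highest at 0.197. These were the fits without N clone 20-15, 22-5, 22-9, 22-17, 22-18, 23-10, 23-22 or 23-23 and without A clone 20-106, 22-11, 22-16 or 23-14. Without A clone 23-14 alone the log2 fold change was 1.15 (SE 0.607), while in the other 19 such fits it lay between 1.78 and 2.26. DESeq2's Wald test with the animal block gave a log2 fold change of 1.99 with an adjusted p of 0.0045. On simulated counts DESeq2 made 31 false calls and edgeR 4. With counts summed per animal and condition, edgeR's test gave 1.81 with an adjusted p of 0.406, and in that fit 0 of all genes were called.

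PTGS1, the constitutive cyclooxygenase, was close to the limit of detection in most clones. It ranged from 0.0613 to 2.96 CPM in A clones, with a median of 0.266 CPM, and from 0.0448 to 6.75 CPM in N clones, with a median of 0.291 CPM. N clone 20-15 held 110 counts and A clone 22-16 held 47 counts, and no other clone held more than 19. A count of 0 allows up to 3 counts, which correspond to 0.0764 to 0.216 CPM in these libraries, counting error only. Fitted without the filter on low counts, PTGS1 had a log2 fold change of 0.10 (SE 0.793, adjusted p = 0.957 over 23383 genes).

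The balance of both cyclooxygenases within a clone was compared as the log2 ratio of their levels, which needs no gene length when clones are compared. The log2 ratio of PTGS2 to PTGS1 was 5.53 ± 2.17 for A and 3.95 ± 2.13 for N (mean ± SD of 10 clones of each kind). The difference of 1.58 was not past 0.05 when labels were permuted within animals (two-sided exact permutation test, p = 0.0828, where the smallest p that 19600 arrangements allow is 0.000102). N clone 20-15 was the 1 clone with a ratio below 0, at -0.72. PTGS1 held few counts in most clones, so that these ratios depend on the prior count of 2. The highest ratios, 9.76 in A clone 23-14 and 6.42 in N clone 22-17, rest on 2 counts and 1 count of PTGS1. The size of the difference is therefore poorly determined.

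PTGES encodes the inducible terminal synthase of prostaglandin E2. In A clones it ranged from 4.78 to 29.4 CPM, with a median of 11.4 CPM, and in N clones from 0.565 to 82.9 CPM, with a median of 5.42 CPM. The N clones lay on both sides of the A clones, 2 of them above every A clone and 4 below. The highest were N clones 20-15 and 17-23, at 82.9 and 35.7 CPM, and the lowest were N clones 22-5, 22-17 and 22-9, at 0.565, 1.43 and 1.501 CPM. Its mean CPM was higher in N clones, at 16.0 ± 25.7 against 12.4 ± 7.43 CPM, while its log2 fold change with the animal block was 0.51 (SE 0.536, adjusted p = 0.521). Without the block the log2 fold change was -0.37. The differences within animals were -1.61, -1.49, 2.36 and 0.44 in animals 17, 20, 22 and 23.

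PTGIS encodes prostacyclin synthase and was the gene of the list with the largest counts, between 216 and 10000 per clone. It ranged from 14.7 to 490 CPM in A clones, with a median of 126 CPM, and from 62.6 to 360 CPM in N clones, with a median of 164 CPM. A clones lay on both sides, 2 of them above every N clone (20-106 and 23-14) and 4 below. Its log2 fold change was -0.63 (SE 0.442, adjusted p = 0.319), and animal 20 was the 1 animal in which it was higher in the A clone.

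PTGDS encodes the lipocalin-type synthase of prostaglandin D2. It ranged from 1.08 to 80.4 CPM in A clones, with a median of 41.4 CPM, and from 3.56 to 157 CPM in N clones, with a median of 60.1 CPM. A total of 4 N clones were above every A clone, 3 of them from animal 23. Both clones of animal 20 were low, with 1.08 CPM in A clone 20-106 and 3.56 CPM in N clone 20-15, and N clone 22-18 was as low at 3.89 CPM. The log2 fold change was -0.70 (SE 0.443, adjusted p = 0.261), and the difference was below 0 in animals 17, 20 and 23.

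PTGER4 encodes a prostaglandin E2 receptor that raises cyclic AMP. It ranged from 3.71 to 23.8 CPM in A clones, with a median of 10.1 CPM, and from 1.25 to 27.4 CPM in N clones, with a median of 3.28 CPM. A total of 5 N clones lay below every A clone. All 4 animals had more PTGER4 on the A side, by 3.10, 1.82, 0.93 and 0.92 on the log2 scale in animals 17, 20, 22 and 23. Its log2 fold change of 0.97 (SE 0.532, adjusted p = 0.198) did not pass the test. The highest N clones were 22-5 and 22-9, at 27.4 and 16.1 CPM, the clones that stood apart in mesothelial markers, and the other N clones held 1.25 to 7.98 CPM. Without these 2 clones the log2 fold change was 1.91 (SE 0.476, adjusted p = 0.0183), and PTGER4 was then the 1 prostaglandin gene past both thresholds, with PTGS2 at an adjusted p of 0.0892. The fit without them was chosen after values were seen, and leaving out the 2 N clones highest in PTGER4 raises its fold change by itself. A clones 22-11 and 22-16 came next in mesothelial markers, with sums of 1095 and 939 CPM. They held 23.8 and 19.0 CPM of PTGER4 and stayed in that fit, so its adjusted p is a description only.

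PTGER2, the other prostaglandin E2 receptor of the list that raises cyclic AMP, had counts in every A clone, between 1 and 12. It was at 0 counts in 6 of the 10 N clones and held 1 to 4 counts in the other 4. In total 50 counts were found in A clones and 10 in N clones. Fitted without the filter on low counts, its log2 fold change was 2.30 (SE 0.735, adjusted p = 0.0482 over 23383 genes, edgeR's test), and each of the 4 animals had more on the A side. PTGS2 had an adjusted p of 0.0758 in that fit. At these counts the size of the change is poorly determined.

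PTGFR encodes the receptor of prostaglandin F2α. It ranged from 1.68 to 36.6 CPM in A clones, with a median of 15.5 CPM, and from 0.189 to 27.8 CPM in N clones, with a median of 7.01 CPM. N clones 23-22, 23-74 and 23-23, at 0.189, 0.243 and 0.780 CPM, lay below every A clone, whereas the remaining N clone of that animal, 23-10, held 11.9 CPM. Its log2 fold change was 0.79 (SE 0.592, adjusted p = 0.349). Without N clone 23-10 it was 1.68 (SE 0.527, adjusted p = 0.0387), and that was the 1 fit of the 20 leaving out a clone in which PTGFR passed.

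HPGD encodes the dehydrogenase that takes the first step of prostaglandin breakdown. It ranged from 0 to 4.87 CPM in A clones, with a median of 1.24 CPM, and from 0 to 28.9 CPM in N clones, with a median of 0.425 CPM. A clone 20-106 and N clones 23-22 and 23-74 held 0 counts, and N clones 22-18, 20-15 and 22-17, at 28.9, 10.8 and 9.45 CPM, lay above every A clone. The log2 fold change was -0.71 (SE 1.08, adjusted p = 0.669), and without N clone 22-18 it was 0.02. The log2 ratio of PTGS2 to HPGD was 4.44 ± 3.39 for A and 2.78 ± 3.58 for N (mean ± SD of 10 clones of each kind). Clones 20-106, 23-22 and 23-74 held 0 counts of HPGD, so that their ratios of 8.82, 6.20 and 7.96 rest on the prior count of 2 and are not measured values. Among them are the highest ratio of each kind of clone. With these ratios included, the difference of 1.67 was smaller than the spread within either group (two-sided exact permutation test within animals, p = 0.301).

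**Figure D2:**
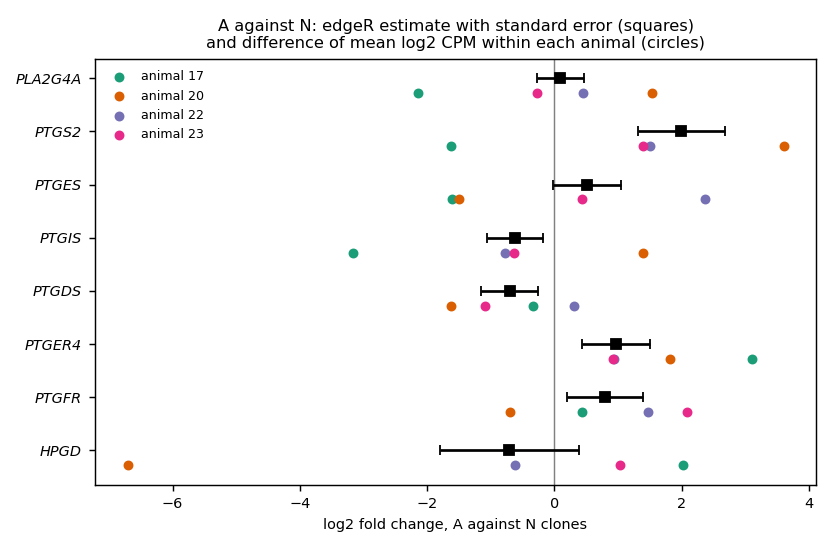
Log2 fold change of A against N clones for the 8 genes tested, with squares and bars for the edgeR estimate and its standard error and circles for the difference of mean log2 CPM within each animal. The circles lie on both sides of 0 for every gene except PTGER4, whose differences are 3.10, 1.82, 0.93 and 0.92.

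The test for a difference between animals 22 and 23 in the effect of the condition, over their 16 clones, called 0 of the 8 prostaglandin genes at an adjusted p under 0.05, and 0 had an unadjusted p under 0.05. Over all genes 0.031% were called, and 9.06% had an unadjusted p under 0.05. HPGD came closest, with an interaction of 3.38 on the log2 scale (SE 1.77, adjusted p = 0.597, edgeR's test). Its levels in animal 23 were at most 1.23 CPM.

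For 7 of the 8 genes, the animal of origin and the single clone each took a larger share of the variation than the condition did. For PTGER4 the single clone alone did. The share of the single clone is what animal and condition leave. With 1 library per clone it also holds counting noise and differences between libraries, which cannot be told apart from the clone. The condition enters as a single term and the animals as several, so that this order is met without any effect. At the median of all genes tested the order was the same, with 62.3% left to the single clone. PTGER4, at 69.9%, had more than that left, and the other genes had 33.9% to 58.3%. After animal and condition were fitted to log2 CPM, the residual SD of the 8 genes lay between 0.854 for PLA2G4A and 2.09 for HPGD, while the median over all genes tested was 0.338. PTGS2, at 1.503, stood at the 95.1st percentile of all genes tested. The condition within animals took 15.6% of the squared deviations of PTGS2 and 22.8% of those of PTGER4, and at most 11.6% for each of the other genes, with a median of 11.3% over all genes tested. The animal took 63.6% for PTGDS, 56.7% for PLA2G4A, 54.5% for PTGFR, 43.2% for PTGES, 41.3% for HPGD, 35.6% for PTGIS and 27.2% for PTGS2, but 7.23% for PTGER4, which was below the 18.8% at the median of all genes.

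A test of the animals, with the condition kept in the model, was added after values were seen. It called PTGDS alone of the 8 genes (adjusted p = 0.0475, edgeR's test), where 4.6% of all genes were called. The mean level of PTGDS was 2.32 CPM in the clones of animal 20 and 44.3, 50.3 and 82.7 CPM in animals 17, 22 and 23. In 15 of the 20 fits that left out 1 clone its adjusted p was above 0.05, and the highest was 0.171. For PTGES the means were 23.6, 56.1, 8.19 and 7.40 CPM in animals 17, 20, 22 and 23 (adjusted p = 0.0639), and for PTGFR they were 30.2, 22.5, 16.5 and 4.19 CPM (adjusted p = 0.137). Between animals 22 and 23, which gave 8 clones each, HPGD had the largest difference, from 6.75 ± 9.42 CPM in animal 22 to 0.316 ± 0.398 CPM in animal 23. Its log2 difference was -4.19 (SE 1.05), with an adjusted p of 0.115 and an unadjusted p of 0.00115 from edgeR's test, and 0.108% of all genes were called in that comparison. Levels of HPGD in animal 23 were 0 to 1.23 CPM, near the limit of detection. The mean of animal 22 includes N clone 22-18 at 28.9 CPM, so that the size of the difference is poorly determined.

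**Figure D3:**
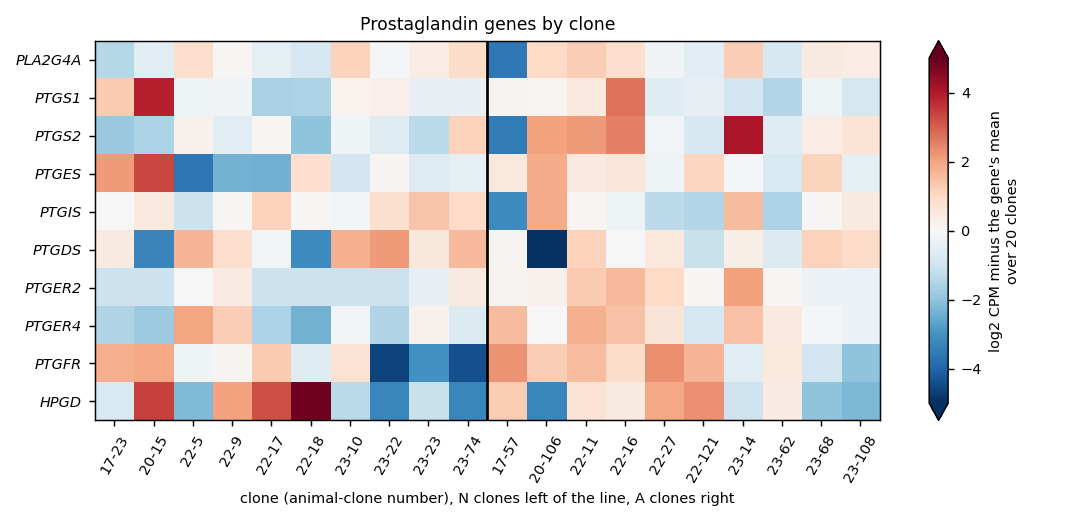
Level of each prostaglandin gene in each clone as log2 CPM minus the gene's mean over the 20 clones, with N clones to the left of the line and A clones to the right. The row of PTGS2 is highest in A clones 20-106, 22-11, 22-16 and 23-14 and lowest in A clone 17-57, and the row of HPGD is highest in N clones 22-18, 20-15 and 22-17.

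Some prostaglandin genes varied together from clone to clone. Correlations were taken over the residuals of log2 CPM after animal and condition, in the 20 clones, which share animals and libraries, and are given as a description. PTGS2 and PLA2G4A had the highest of the 28 pairs, with r of 0.84 and Spearman's rho of 0.87. Without clones 23-62 and 22-11, whose residuals of PLA2G4A lay farthest from the median residual, r was 0.81. On log2 CPM itself r was 0.92 within the 10 A clones and 0.73 within the 10 N clones. Without the 2 clones of a kind whose level of PLA2G4A was farthest from the median, it was 0.91 in A clones (without 17-57 and 23-62) and 0.71 in N clones (without 17-23 and 23-10). A clone 17-57 held the lowest level of both genes, 1.43 CPM of PLA2G4A and 1.02 CPM of PTGS2, and A clone 23-14 held 42.6 and 210.0 CPM.

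Ranked over 11385 other genes with a mean log2 CPM of at least 1, the genes whose residuals were most like those of PTGS2 were FOXO1 (r of 0.840), PLA2G4A (0.836) and SLC35G1 (0.821). FOXO1 encodes a transcription factor under the control of insulin, and SLC35G1 a membrane protein of the solute carrier family. PLA2G4A and PTGS2 lie on the same chromosome in the RefSeq annotation of a later assembly, ARS-UCD2.0, with 1 annotated gene between them. Neither FOXO1 nor SLC35G1 passed the test between A and N clones, with adjusted p-values of 0.16 and 0.214.

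PTGIS and PTGS2 followed with r of 0.69 and rho of 0.69. This pair was at 0.88 within A clones and 0.02 within N clones, but at 0.59 within N clones once 22-5 and 23-23, the farthest from the median of PTGIS, were left out. HPGD had negative correlations with PLA2G4A (r of -0.69 and rho of -0.69) and with PTGS2 (r of -0.54 and rho of -0.62). Without clones 22-5 and 20-106, farthest in residuals of HPGD, r was -0.67 and -0.53. On log2 CPM, the pair with PTGS2 moved from -0.52 to -0.17 within N clones without 22-18 and 20-15. Within A clones it moved from -0.45 to -0.47 without 20-106 and 23-108. HPGD held few counts in many clones, where its log2 CPM depends on the prior count of 2. PTGER4 and PTGES gave r of -0.63 over all clones, which moved to -0.38 without N clones 22-5 and 22-18. Of the 28 pairs, 4 had an r above 0.5 and 4 an r below -0.5, and the median was -0.05.

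**Figure D4:**
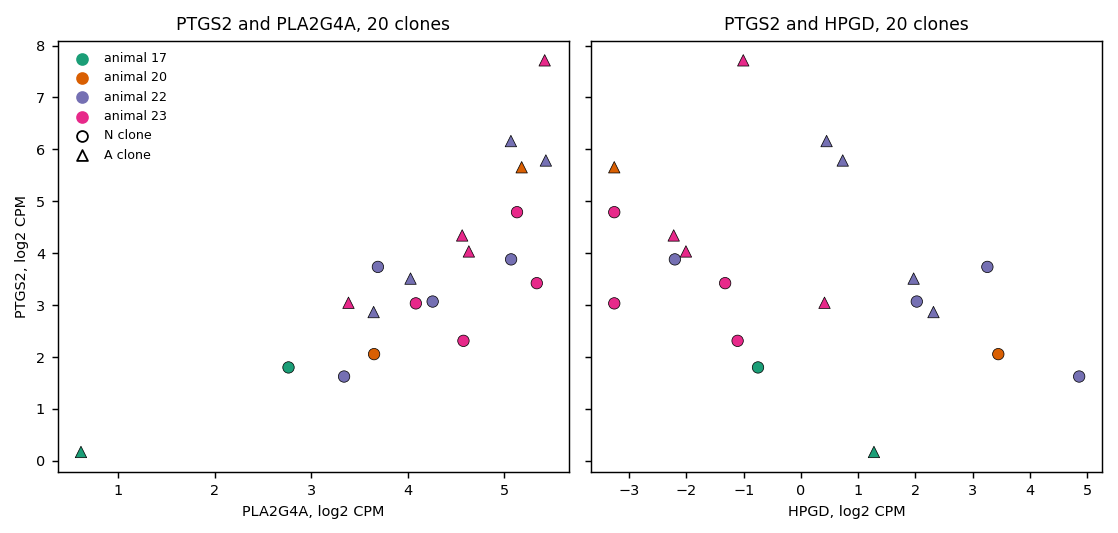
Log2 CPM of PTGS2 against PLA2G4A (left) and HPGD (right) in the 20 clones, with circles for N clones, triangles for A clones and colours for animals. PTGS2 and PLA2G4A vary together within both kinds of clone, with r of 0.92 in A and 0.73 in N clones, while N clone 22-18, highest in HPGD at 28.9 CPM, holds 2.98 CPM of PTGS2 and N clone 22-17, with 9.45 CPM of HPGD, holds 13.2 CPM.

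The list of other eicosanoid genes held 43 symbols, of which 35 were in the table and 17 were tested. A total of 2 were higher and 6 lower in A clones at an adjusted p under 0.05, against 10.3% of all genes in each direction, and the median log2 fold change was -0.15. AKR1B1, an aldose reductase with prostaglandin F synthase activity, was the 1 gene past both thresholds. It ranged from 57.1 to 216 CPM in A clones, with a median of 124 CPM, and from 42.1 to 84.9 CPM in N clones, with a median of 68.9 CPM. All A clones but 17-57 lay above every N clone, and in animal 17 the difference was -0.29. Its log2 fold change was 1.04 (SE 0.177, adjusted p = 0.00162), close to the 2-fold limit. Without N clone 23-10 or A clone 22-16, 22-27 or 23-108 it was between 0.96 and 0.99, with adjusted p-values of at most 0.00385 in each of the 20 such fits.

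PTGFRN, a membrane protein known to reduce binding of prostaglandin F2α to its receptor, was the other gene that rose, with 176 ± 46.2 CPM in A and 118 ± 53.2 CPM in N clones (adjusted p = 0.0431). The genes that fell in A clones were PTGES3, a cochaperone with prostaglandin E synthase activity, CBR1, a carbonyl reductase that acts on prostaglandin E2, PLA2G6, a calcium-independent phospholipase, and LTA4H, which makes leukotriene B4, together with PTGR1 and ZADH2. The last pair encode reductases that act on prostaglandins already oxidised by HPGD. ZADH2 was at 34.8 ± 9.91 CPM in A and 60.8 ± 16.8 CPM in N clones, a log2 fold change of -0.81 (SE 0.18, adjusted p = 0.00664), and was lower in A clones in all 4 animals. PTGES3 fell from 203 ± 30.6 to 151 ± 18.2 CPM, with 8 A clones below every N clone. The calls of PLA2G6, LTA4H, PTGR1 and PTGFRN were lost in 13, 14, 9 and 12 of the 20 fits leaving out a clone. The highest adjusted p-values were 0.085 for PLA2G6 without N clone 17-23, 0.0805 for LTA4H without N clone 23-22, 0.0694 for PTGR1 without N clone 22-9 and 0.0871 for PTGFRN without A clone 22-27. Without the animal block the same 4 genes were not past 0.05, with adjusted p-values of 0.0521, 0.111, 0.146 and 0.0867.

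Among the receptors outside the list, PTGDR, a receptor of prostaglandin D2, was at 56.5 ± 47.5 CPM in A and 51.5 ± 24.3 CPM in N clones, a log2 fold change of -0.07 (SE 0.464, adjusted p = 0.925). Thromboxane synthase (TBXAS1), 5-lipoxygenase (ALOX5) and its activating protein (ALOX5AP) held 0 counts in every clone.

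Genes that inflammatory stimuli are known to induce together with PTGS2 formed a further list of 9, of which 7 were tested. Higher in A clones were 2 of them and lower 0, against 10.3% of all genes tested in each direction. IL6, an inflammatory cytokine, ranged from 0.293 to 34.1 CPM in A clones and from 0 to 2.52 CPM in N clones, with a log2 fold change of 3.78 (SE 0.565, adjusted p = 0.000792). TNFAIP3, an inhibitor of NF-kB signalling, was at 33.4 ± 22.2 CPM in A and 4.90 ± 2.67 CPM in N clones (log2 fold change of 2.68, SE 0.314, adjusted p = 0.000169). The 4 A clones with the highest PTGS2 were also the 4 A clones with the highest summed level of this list, 1115 CPM in 20-106, 252 CPM in 22-11, 283 CPM in 22-16 and 392 CPM in 23-14, whereas the other A clones held 85.8 to 182 CPM and N clones 65.6 to 266 CPM. In N clones the order differed. N clone 23-74, the highest of them in PTGS2 at 27.6 CPM, held the lowest sum, 65.6 CPM. N clones 17-23 and 20-15, with the highest sums of N clones at 266 and 202 CPM, held 3.38 and 4.05 CPM of PTGS2. The sum also holds genes that were not called, such as CXCL8, at up to 656 CPM in an A clone (adjusted p = 0.344, edgeR's test). The part of these genes in the level of PTGS2 was not tested.

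Of 10 genes that cyclic AMP, the messenger of both prostaglandin E2 receptors of the list, is known to induce, 9 were tested. The 1 gene called by edgeR was DUSP1, a phosphatase of MAP kinases, which was lower in A clones, at 211 ± 87.1 against 342 ± 58.8 CPM (log2 fold change of -0.74, adjusted p = 0.0194). Over all genes tested edgeR called 10.3% lower and 10.3% higher in A clones. DESeq2 called 2 of the list, both lower, and 0 higher, and 3528 of 12900 genes in all. NR4A1, an orphan nuclear receptor, had a log2 fold change of -1.99 (SE 0.807, adjusted p = 0.0874). The other genes tested went in both directions, none of them called by edgeR. Log2 fold changes were 0.80 for PDE4B, 0.68 for SIK1, 0.51 for PDE4D and 0.25 for CREM. They were -0.60 for NR4A3, -0.53 for NR4A2 and -0.31 for PER1.

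Some lists for other properties of the clones moved with the condition, and others did not. By edgeR 10.3% of all genes tested rose and 10.3% fell in A clones, and DESeq2 called 3528 of 12900 in either direction. Of 6 proliferation genes 3 fell in A clones by edgeR and 5 by DESeq2, and their summed level ranged from 21.5 to 289 CPM in A against 98.6 to 451 CPM in N clones. Of 6 smooth muscle and pericyte genes tested, 2 rose by edgeR and 5 by DESeq2, with summed levels of 4118 to 11364 CPM in A and 1082 to 9977 CPM in N clones. Of 2 macrophage genes tested both rose (CD68 and MRC1), with the list at 3.47 to 23.1 CPM in A and 1.59 to 13.5 CPM in N clones. Of 6 mesothelial genes tested 1 fell, with the list at 7.73 to 1095 CPM in A and 8.82 to 9198 CPM in N clones. The endothelial list was at 5.12 to 23.7 CPM in A and 1.07 to 41.3 CPM in N clones, with CLDN5 at 0 counts in every clone. Of its 3 genes tested edgeR called 0, with 1 at an unadjusted p under 0.05, and DESeq2 called 1. Of the 8 MSC markers edgeR and DESeq2 both called 0, and 0 had an unadjusted p under 0.05 with edgeR. Of 6 adipogenic genes tested 2 rose (PPARG and PLIN1) and 2 fell (CEBPB and CEBPD) in A clones. Their part in the levels of the prostaglandin genes was not tested, and in bulk RNA fewer cells with a transcript and less transcript per cell cannot be told apart.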

How the data were processed

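RNA from 20 clones was sequenced as paired ends on the NovaSeq platform with a directional library kit. Per the labels and the methods of the study, the authors trimmed reads with Trimmomatic 0.36, mapped them with STAR 2.5.2b to ARS-UCD1.2 and counted unique reads within exons with featureCounts of Subread 1.5.2. The deposited values are raw counts per gene and clone. The strand setting is not given in the sources used here. In RefSeq, PTGS1 and PTGER2 each overlap 1 other gene, so their counts are less certain. The table holds 1 row with no gene name (0.113% to 0.333% of the counts of a clone), which was left out. No column of the table belonged to a sample outside the series.

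R 4.3.3 and edgeR 4.0.16 were used to fit all genes that passed the default filter, with TMM factors, animal as a block, the robust quasi-likelihood F test and p-values adjusted by Benjamini-Hochberg. Same-animal clones are paired by their donor calf, and the deviations of its A and N clones correlated at 0.193 to 0.440. Log2 CPM used a prior count of 2, and the limit for a gene at 0 was set to 3 counts. No 2 libraries agreed within sampling noise. Ratios were tested by exact permutation within animals. Pairwise correlations carry no test. Alternatives were no block, DESeq2 size factors, upper-quartile normalization, other filters, DESeq2 1.42.0, summed counts, and each clone or animal left out. On simulated counts for A against N with 200 genes changed 4-fold, the share recovered was 81% for edgeR and 88% for DESeq2, and false calls numbered 4 and 31 (12754 genes simulated).

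The prostaglandin genes and the other lists were chosen with earlier results of these data known. All 10 genes are described. Of the other eicosanoid genes, those past both thresholds are named, and for each prostaglandin gene past both thresholds the 3 genes most like it in residuals. Other genes are named as members of their lists. The comparisons of animals and the fit without N clones 22-5 and 22-9 were added after values were seen.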

Additional observations from a re-analysis of the deposited data

Results flagged for a closer look

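Dixon's gap, the distance of an extreme clone to the next one as a share of the range over 10 clones, was computed on the log2 scale for 24 combinations of a gene or ratio with a group. In 4 of them it was above the 95% critical value, where about 1 in 20, or 1.2, exceed it by chance, and the same clones enter all combinations.

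A clone 17-57 was lowest for PLA2G4A among A clones, with a gap of 0.575 of the range (1.43 CPM against at least 10.4 CPM). A clone 20-106 was lowest for PTGDS, with a gap of 0.623 (1.08 CPM against at least 16.3 CPM), and the N clone of that animal was the lowest N clone at 3.56 CPM. PTGS1 was highest in A clone 22-16 among A clones, with a gap of 0.533 (2.96 CPM against at most 0.542 CPM), and in N clone 20-15 among N clones, with a gap of 0.469 (6.75 CPM against at most 1.03 CPM). Animals 17 and 20 gave 1 clone of each kind, so that an animal and a clone cannot be told apart there.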

How the results depend on the processing

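PTGS2 stayed higher in A clones in all 35 alternatives (log2 fold change 1.15 to 2.31) but was past 0.05 in 15. The count of prostaglandin genes past both thresholds was 1 in the fit without the filter as well, but there the gene was PTGER2. It fell to 0 with counts summed per animal and condition, without animal 20, 22 or 23, and with animal 22 or 23 alone, and ranged from 0 to 1 over fits leaving out a clone. For other eicosanoid genes the count was 2 with no filter on low counts (AKR1B1 and LTC4S), with DESeq2 with or without the block (AKR1B1 and LTB4R) and with animal 23 alone, 0 with summed counts, without animal 22 or 23, with animal 22 alone and without N clones 22-5 and 22-9, and 0 to 1 with a clone left out. Over all genes 743 were past both thresholds, 602 without the replicate block, 1276 with no filter, 365 with at least 10 counts in every clone, 0 with summed counts (2243 at an unadjusted p under 0.05), 22 without animal 23, 137 with animal 22 alone and 483 with animal 23 alone.

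PTGES turned to -0.37 without the replicate block, -0.35 with DESeq2 without it, -0.44 with summed counts and -0.12 without animal 22. PLA2G4A turned to -0.063 without animal 20, -0.19 without animal 22 and -0.19 with animal 23 alone, and ranged from -0.067 to 0.29 with a clone left out. HPGD ranged from -1.26 to 0.018 with a clone left out, turning without N clone 22-18, and reached -1.94 without animal 23, -1.91 with animal 22 alone and -1.81 without the block. The log2 ratio of PTGS2 to PTGS1 ranged from 1.06 to 2.07 (exact permutation p of 0.0285 to 0.25) with a clone left out and was past 0.05 in 3 of these 20 fits. The causes were not tested. Leaving out the block changed no call of a prostaglandin gene, while the calls of PTGFRN, PTGR1, LTA4H and PLA2G6 were lost. Depth limits PTGS1 and PTGER2 most, with at most 110 and 12 counts in a clone.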
